A study of Mus musculus with 8 samples.

Results

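The contractile apparatus of smooth muscle was followed gene by gene in the distal colon of mice with and without human Siglec-XII in the intestinal epithelium. A list of 37 genes was used, and all were found by symbol among the 52143 deposited genes. Of these, 31 were tested and 6 were too low to be tested. Of the 31 tested genes, 30 (96.8%) had a lower mean in the Siglec-XII samples than in the controls, as had 78.1% of all genes tested, and 15 (48.4%) were lower at an unadjusted p of 0.05 or less from limma, beside 7.67% of all genes tested. None of the 31 passed the Benjamini-Hochberg adjustment over all genes, where the smallest adjusted p from limma was 0.515. Sample Siglec-XII 4 was the lowest of the 8 samples in 29 of the 31 genes, and in 51.9% of all genes tested.

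The study compared 4 Siglec-XII samples with 4 control samples, numbered 1 to 4 in each group. Siglec-XII mice (SIGLEC12-Villin1-Cre-ERT) carried 1 floxed SIGLEC12 knockin allele in the ROSA26 locus together with Villin1-Cre-ERT, and their control littermates carried Villin1-Cre-ERT alone. Both groups received tamoxifen (a stock of 10 mg/ml) on 5 days from an age of 8 weeks, and the colon was taken 7 days after the last dose, on day 12. The Villin1 promoter drives Cre in intestinal epithelium, so the smooth muscle itself was not the target of the recombination. The transgene was not analysed here. Each group has 4 samples in the labels but 3 mice in the design text, and 3 technical replicate libraries were made of each sample according to the methods. Thus the p-values below measure only the spread between these samples, part of which may be technical.

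Smooth muscle of the gut wall shortens when myosin filaments pull on actin filaments. Calcium entering the cell activates myosin light chain kinase, which phosphorylates the regulatory light chain of myosin, and a phosphatase reverses this step. Calponin, caldesmon and tropomyosin lie along the actin filament, which is anchored with desmin filaments at dense bodies and at the membrane. Many of these genes are transcribed through serum response factor (encoded by Srf) and its coactivator myocardin (encoded by Myocd), which act at a DNA element called the CArG box, an A/T-rich core bounded by CC and GG. In colon, these genes are high in the muscularis propria, the muscularis mucosae and vessel walls, while epithelial cells express only some of them. In bulk tissue, fewer muscle cells and less RNA per muscle cell cannot be told apart.

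The promoter windows of the members were read because 2 members, Srf and Myocd, encode the factor of the CArG box and its coactivator. RefSeq promoter windows (GRCm38.p6, 250 bases before to 50 after the start) were matched for 33 of the 37 members, without Actg2, Myh11, Tagln and Myocd. A CArG box was present in 7 of the 33 (21.2%), namely Actc1, Cnn2, Dmd, Ldb3, Myl6, Myl9 and Srf, and in 488 of 27025 genes of the same table (1.81%). With up to 1 mismatch, 18 of the 33 (54.5%) and 23.8% of all genes held one. These matches describe letters in the windows and do not show that a site is bound. In 5 of the 7 genes, the exact boxes lie outside the GENCODE span of the gene. They are shown because they sit next to a regulatory light chain, a thin filament gene, a Z-line adaptor, a membrane anchor and the factor itself. Each stretch reads 5′ to 3′ on the gene's strand, with the boxes in capitals.
Myl9 (chr2:156775288-156775327, plus strand): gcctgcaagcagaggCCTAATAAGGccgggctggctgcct
Cnn2 (chr10:79988529-79988568, plus strand): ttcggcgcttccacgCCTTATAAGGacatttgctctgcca
Ldb3 (chr14:34588692-34588731, minus strand): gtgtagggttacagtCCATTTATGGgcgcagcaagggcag
Dmd (chrX:82948757-82948796, plus strand): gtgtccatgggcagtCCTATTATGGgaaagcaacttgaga
Srf (chr17:46556200-46556259, minus strand): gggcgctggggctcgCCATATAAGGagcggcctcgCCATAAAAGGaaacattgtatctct
Counted from the RefSeq start, which can differ from the GENCODE start, the boxes of Srf began 82 and 62 bases before it and those of the others from 56 (Cnn2) to 161 (Myl9) bases before it. The boxes of Actc1 and Myl6 lie inside the GENCODE span of these genes and are not shown.

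Values are given as TPM, a transcript's share of the library corrected for its length and scaled to a fixed total, and the deposited scale is log2(TPM + 1). Since TPM holds no read numbers, the depth is unknown, and differences on this scale understate the change of genes with low TPM. From 12748 to 13715 genes reached a TPM of 1 in a sample. The test covered 13164 genes, of which 1010 were lower and 157 higher in Siglec-XII samples at an unadjusted p of 0.05 or less from limma, and 5 (0.038%) passed the adjusted p. The median gene differed by -0.15 on the log2 scale, with 78.1% of genes below 0, and centring each sample on its median turned the split to 285 lower and 1137 higher, with a median of 0.06. Quantile normalization gave 408 lower and 704 higher. Each member is therefore read below against a general difference of -0.15, and values after centring are given for the members that were called.

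Smooth muscle was present in all samples. Acta2, Actg2, Myh11, Cnn1 and Des were used as markers of smooth muscle. Their summed level was 513, 458, 739 and 574 TPM in controls 1 to 4. In Siglec-XII 1 to 4 it was 451, 402, 432 and 179 TPM. Every Siglec-XII sample was below every control, by a small margin in Siglec-XII 1 and by a wide one in Siglec-XII 4. The 37 members together made 0.409% ± 0.0282 of all TPM in the 4 controls and 0.367% ± 0.0368 in the 4 Siglec-XII samples (mean ± SD). The most abundant of them was Myl6, which cells other than muscle also express. Without Myl6 the shares in controls 1 to 4 were 0.2%, 0.16%, 0.227% and 0.194%, against 0.166%, 0.15%, 0.162% and 0.0884% in Siglec-XII 1 to 4. Control 2 thus lay within the range of the Siglec-XII samples.

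**Figure D1:**
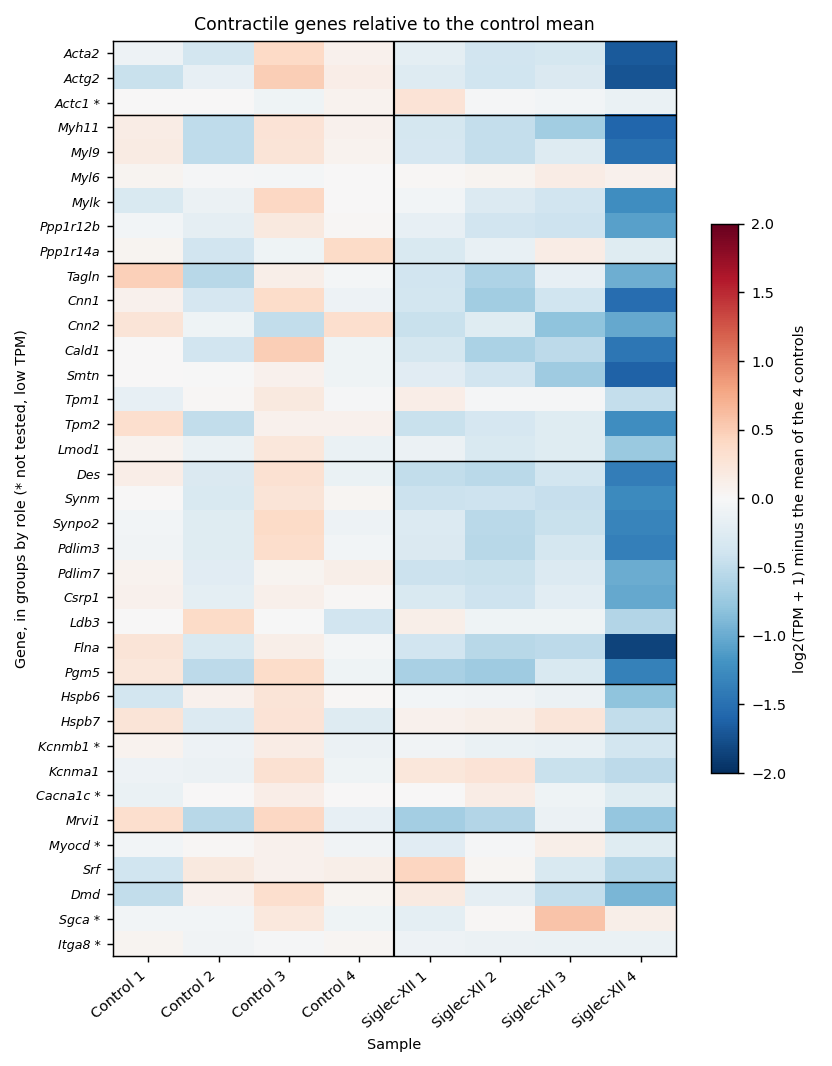
Color gives log2(TPM + 1) of each of the 37 genes (y axis, grouped by role) in each of the 8 samples (x axis) minus the mean of the 4 controls, from blue (lower) to red (higher), with an asterisk at the 6 genes that were not tested. Siglec-XII 4 forms a dark column with a median of -1.09 over the tested genes, whereas Siglec-XII 1 to 3 are pale blue, with medians of -0.29, -0.39 and -0.31.

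Of the actins, Acta2 and Actg2 were lower in the Siglec-XII samples and neither passed the test. Acta2 (ENSMUSG00000035783, chr19:34241090-34255590, minus strand) encodes the alpha actin of smooth muscle. It was at 136, 114, 192 and 154 TPM in controls 1 to 4 and at 127, 112, 114 and 44.9 TPM in Siglec-XII 1 to 4. Siglec-XII 1 lay among the controls, and Siglec-XII 4 stood far below all other samples. The means were 7.20 ± 0.32 and 6.55 ± 0.69 log2(TPM + 1) (SD, n = 4 each), a difference of -0.66 with a standard error of 0.316 (limma, unadjusted p = 0.0673). Without Siglec-XII 4 it was -0.32 (limma, unadjusted p = 0.0964).

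Actg2 (ENSMUSG00000059430, chr6:83512905-83536265, minus strand), the gamma actin of enteric muscle, had the same shape. Its level was 144, 175, 277 and 215 TPM in controls 1 to 4 and 164, 149, 161 and 59.2 TPM in Siglec-XII 1 to 4. Here Siglec-XII 1 to 3 overlapped the lower controls. The difference was -0.67 with a standard error of 0.337 (limma, unadjusted p = 0.0775), and -0.32 without Siglec-XII 4 (limma, unadjusted p = 0.151). Actc1, the alpha actin of heart muscle, was between 0.0278 and 0.361 TPM in all samples and was not tested. Few windows of 31 bases were shared with other genes in these actins, 1.39% in Acta2, 1.21% in Actg2 and 0.756% in Actc1, so that reads of similar actins could mostly be told apart.

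Among the 6 genes of myosin and its regulators, Myh11 and Ppp1r12b were lower at an unadjusted p of 0.05 or less from limma, as were 7.67% of all genes tested. After median centring only Myh11 was. Myh11 (ENSMUSG00000018830, chr16:14194535-14291372, minus strand) encodes the myosin heavy chain of smooth muscle and is close to restricted to it. Its level was 46.5, 29.1, 51.2 and 44.2 TPM in controls 1 to 4 and 32.7, 29.7, 25.4 and 13.2 TPM in Siglec-XII 1 to 4. Control 2 lay among the Siglec-XII samples, so the groups overlapped. The means were 5.42 ± 0.35 and 4.64 ± 0.56 log2(TPM + 1) (SD, n = 4 each), a difference of -0.78 with a standard error of 0.281 (limma, unadjusted p = 0.0212, adjusted p = 0.515). It was -0.51 without Siglec-XII 4 (limma, unadjusted p = 0.0299) and -0.57 after median centring (limma, unadjusted p = 0.0387).

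Ppp1r12b, a targeting subunit of myosin phosphatase, was at 3.66 to 5.06 TPM in controls and 1.48 to 3.71 TPM in Siglec-XII samples, a difference of -0.52 (limma, unadjusted p = 0.033) that was -0.33 without Siglec-XII 4 (limma, unadjusted p = 0.0554) and -0.30 after centring (limma, unadjusted p = 0.0787). Myl9, the regulatory light chain, differed by -0.63 (limma, unadjusted p = 0.0513), and Mylk, its kinase, by -0.49 (limma, unadjusted p = 0.0916). The phosphatase inhibitor Ppp1r14a differed by -0.13 on the deposited scale and by 0.08 after centring. Thus Myl9 and Mylk, the chain and its kinase, had lower means without passing the test, and the inhibitor had no stable direction.

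Myl6 (ENSMUSG00000090841, chr10:128490860-128494145, minus strand), the essential light chain shared by smooth muscle and non-muscle myosin, was the only tested member with a mean above the controls. It was also the most abundant member, at 2230, 2095, 2071 and 2146 TPM in controls 1 to 4 and 2175, 2220, 2368 and 2262 TPM in Siglec-XII 1 to 4. Control 1 lay within the range of the Siglec-XII samples, and Siglec-XII 4 was not low for this gene. The difference was 0.08 with a standard error of 0.0739 (limma, unadjusted p = 0.311). Of its windows, 11.4% occur in other genes, and kallisto divides reads of such windows by estimate.

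**Figure D2:**
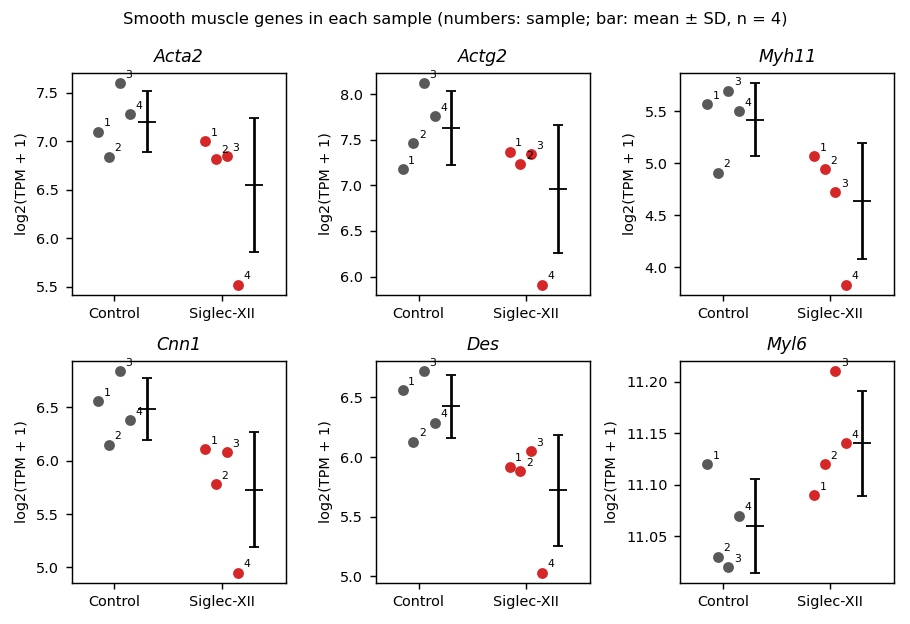
Each panel plots log2(TPM + 1) (y axis, own range per panel) of 1 gene in the 4 control (gray) and 4 Siglec-XII (red) samples, numbered by sample, with the mean and SD as a bar. Siglec-XII 4 is the lowest point for Acta2 (5.52), Actg2 (5.91), Myh11 (3.83), Cnn1 (4.95) and Des (5.03), and not for Myl6 (11.14).

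Along the thin filament, 5 of 8 genes were lower at an unadjusted p of 0.05 or less, Cnn1, Cnn2, Cald1, Smtn and Tpm2, beside 7.67% of all genes tested. It was 3 of 8 without Siglec-XII 4 (3.18% of all genes) and the same number after median centring (2.16% of all genes), in both cases Cnn1, Cald1 and Smtn. Cnn1 (ENSMUSG00000001349, chr9:22099216-22109630, plus strand) encodes calponin 1, an inhibitor of the actin-activated myosin ATPase. It was at 93.2, 70.1, 113 and 82.6 TPM in controls 1 to 4 and at 68.3, 53.8, 66.7 and 29.9 TPM in Siglec-XII 1 to 4. Every Siglec-XII sample was below every control. The means were 6.48 ± 0.29 and 5.73 ± 0.54 log2(TPM + 1) (SD, n = 4 each), a difference of -0.75 with a standard error of 0.261 (limma, unadjusted p = 0.0179). It was -0.49 without Siglec-XII 4 (limma, unadjusted p = 0.0195) and -0.54 after centring (limma, unadjusted p = 0.0459).

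Cald1, caldesmon, which holds myosin off actin until calcium rises, was at 22.2, 16.6, 31.4 and 20.9 TPM in controls 1 to 4 and at 17.1, 13.8, 15 and 7.54 TPM in Siglec-XII 1 to 4. The groups met at Control 2 and Siglec-XII 1. The difference was -0.74 (limma, unadjusted p = 0.0193) and -0.51 without Siglec-XII 4 (limma, unadjusted p = 0.0344), and -0.53 after centring (limma, unadjusted p = 0.045). Smtn, smoothelin, an actin-binding protein of contractile muscle, was tight among controls at 18.8 to 21.5 TPM and spread from 5.87 to 17.2 TPM among Siglec-XII samples. It differed by -0.73 (limma, unadjusted p = 0.0245) and by -0.44 without Siglec-XII 4 (limma, unadjusted p = 0.012), with no overlap between the groups. After centring the difference was -0.52 (limma, unadjusted p = 0.0253). Of the windows of Smtn, 12% also occur in Gm11946, which was at 0.258 to 0.721 TPM. Cnn2, the broadly expressed calponin, and Tpm2, the beta tropomyosin, differed by -0.63 (limma, unadjusted p = 0.0262) and -0.57 (limma, unadjusted p = 0.044), and neither was below 0.05 without Siglec-XII 4 (limma, unadjusted p = 0.069 and unadjusted p = 0.0936) or after centring (limma, unadjusted p = 0.0618 and unadjusted p = 0.165).

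Of the 3 others, Tpm1, the alpha tropomyosin that epithelial cells also make, was at 339 to 437 TPM in controls and 273 to 421 TPM in Siglec-XII samples, a difference of -0.10 that turned to 0.12 after median centring and to 0.03 without Siglec-XII 4. Lmod1, leiomodin, which starts new actin filaments, differed by -0.36 (limma, unadjusted p = 0.0673). Tagln, the actin-bundling transgelin, differed by -0.53 (limma, unadjusted p = 0.0511). The value of Tagln is uncertain because 62.2% of its windows occur in other genes, mainly (58.2%) in the antisense gene Gm48529, and the strand setting of kallisto is not given in the sources used here. Gm48529 was at 2.57 to 5.62 TPM, against 124 to 342 TPM for Tagln.

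The genes of intermediate filaments, dense bodies and Z-lines held most of the lower genes, 8 of 9 (7.67% of all genes tested), and 7 of the 9 had no overlap between groups (4.06% of all genes). Without Siglec-XII 4, all 8 were at an unadjusted p of 0.05 or less from limma (3.18% of all genes), whereas after median centring 3 were, Des, Synm and Flna (2.16% of all genes). Des (ENSMUSG00000026208, chr1:75360329-75368579, plus strand) encodes desmin, the muscle intermediate filament. It was at 93.2, 69, 104 and 77.1 TPM in controls 1 to 4 and at 59.4, 57.8, 65.3 and 31.7 TPM in Siglec-XII 1 to 4. The 4 Siglec-XII samples were all below the lowest control. The means were 6.42 ± 0.26 and 5.72 ± 0.46 log2(TPM + 1) (SD, n = 4 each), a difference of -0.70 with a standard error of 0.229 (limma, unadjusted p = 0.0133). It was -0.47 without Siglec-XII 4 (limma, unadjusted p = 0.0119) and -0.49 after centring (limma, unadjusted p = 0.045).

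Synm, synemin, the partner of desmin in these filaments, was at 8.45, 6.61, 10.2 and 8.63 TPM in controls 1 to 4 and at 5.94, 6.05, 5.81 and 2.89 TPM in Siglec-XII 1 to 4. The other Siglec-XII samples lay close together, and all were under the controls. Its difference was -0.64 with a standard error of 0.22 (limma, unadjusted p = 0.0167) and -0.44 without Siglec-XII 4 (limma, unadjusted p = 0.0198), and it was -0.43 after centring (limma, unadjusted p = 0.0394). Pdlim7, a PDZ and LIM domain adaptor on actin filaments, had the smallest unadjusted p of the members. It was at 15.5, 12.4, 15.4 and 16 TPM in controls 1 to 4 and at 10.7, 10.6, 12 and 6.88 TPM in Siglec-XII 1 to 4. Again no Siglec-XII sample reached the controls, with a difference of -0.54 and a standard error of 0.172 (limma, unadjusted p = 0.0122), or -0.38 without Siglec-XII 4 (limma, unadjusted p = 0.0147). After centring it was -0.32 (limma, unadjusted p = 0.0669).

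Csrp1, a LIM protein that binds alpha-actinin, was at 146, 121, 148 and 141 TPM in controls 1 to 4 and at 112, 103, 119 and 67.1 TPM in Siglec-XII 1 to 4, again without overlap. The difference was -0.49 with a standard error of 0.174 (limma, unadjusted p = 0.0197) and -0.31 without Siglec-XII 4 (limma, unadjusted p = 0.0141), and it was -0.28 after centring (limma, unadjusted p = 0.109). Pgm5, aciculin, a phosphoglucomutase relative found at muscle adhesion sites, was at 8.21, 4.42, 9.13 and 6.37 TPM in controls 1 to 4 and at 3.99, 3.8, 5.37 and 2.08 TPM in Siglec-XII 1 to 4. Control 2 was below Siglec-XII 3, so these groups overlapped, and the difference was -0.75 (limma, unadjusted p = 0.0197), or -0.53 after centring (limma, unadjusted p = 0.0761).

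Flna, filamin A, which crosslinks actin in muscle and in many other cells, had the largest difference of the 31 tested members on the deposited scale, -0.83 (limma, unadjusted p = 0.024). It ranged from 36.2 to 54.1 TPM in controls and from 11.8 to 34.5 TPM in Siglec-XII samples, and the difference was -0.49 without Siglec-XII 4 (limma, unadjusted p = 0.00861) and -0.62 after centring (limma, unadjusted p = 0.0421). Synpo2 (-0.64) and Pdlim3 (-0.63), which bind actin and alpha-actinin at Z-lines and dense bodies, were also lower without overlap (limma, unadjusted p = 0.0271 and unadjusted p = 0.0284), and after centring were at -0.43 and -0.42 (limma, unadjusted p = 0.0608 and unadjusted p = 0.0671). The ninth gene, Ldb3, a Z-line adaptor best known from striated muscle, differed by -0.16 (limma, unadjusted p = 0.453) and by 0.05 after centring.

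Outside the filaments, none of the 6 tested genes was at an unadjusted p of 0.05 or less from limma. Hspb6 and Hspb7, small heat shock proteins of muscle, differed by -0.26 and -0.02, and Hspb7 turned to 0.20 after median centring. Kcnma1, the pore of the calcium-activated potassium channel that relaxes muscle, differed by -0.12 (0.10 after centring), and Mrvi1, which mediates the cGMP brake on calcium release, by -0.54 (limma, unadjusted p = 0.0538). Srf was at 18.3 to 28.3 TPM in controls and 16.1 to 33.2 TPM in Siglec-XII samples, a difference of -0.11 (limma, unadjusted p = 0.65) that was 0.11 after centring. Dmd, dystrophin, which ties actin to the membrane, differed by -0.35 (limma, unadjusted p = 0.214).

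The 6 untested members had a TPM under 1 in all samples, among them Myocd, the coactivator named above. Myocd was between 0.0896 and 0.393 TPM and Cacna1c, the calcium channel that opens contraction, between 0.28 and 0.696 TPM. Kcnmb1, the smooth muscle subunit of the potassium channel, was between 0.225 and 0.744 TPM and Sgca, a partner of dystrophin, between 0.125 and 0.918 TPM. Itga8, an integrin of smooth muscle, was at 0.444, 0.332, 0.372 and 0.439 TPM in controls 1 to 4 and at 0.303, 0.289, 0.271 and 0.264 TPM in Siglec-XII 1 to 4. Its Siglec-XII values were all below the controls, at a level where TPM carries little information.

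The genes with an exact CArG box in the window ranged widely in their difference. Of the 6 that were tested, Cnn2 and Myl9 were at -0.63, Dmd at -0.35, Ldb3 at -0.16, Srf at -0.11 and Myl6 at 0.08. Only Cnn2 was lower at an unadjusted p of 0.05 or less from limma, beside 7.67% of all genes tested. As given above, it was not called without Siglec-XII 4 or after centring.

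Samples of 1 group differed in their level over the members as a whole. Over the 31 tested genes, the median distance from the control mean was 0.06, -0.23, 0.25 and 0.01 log2 units in controls 1 to 4, and Control 3 was the highest of the 8 samples in 22 genes. It was -0.29, -0.39, -0.31 and -1.09 in Siglec-XII 1 to 4. The same median over all genes tested was -0.12, 0.09, 0.01 and 0.03 in controls and 0.03, -0.02, -0.24 and -0.37 in Siglec-XII samples. Against its own sample, Siglec-XII 3 was therefore close to its other genes (-0.07), while the members were low in Siglec-XII 1 (-0.32), Siglec-XII 2 (-0.37), Siglec-XII 4 (-0.72) and also Control 2 (-0.32).

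Siglec-XII 4 was examined on its own, because it lay lowest in 93.5% of the tested members, whereas it was lowest in 51.9% of all genes tested. It was at least 2-fold below the control mean in 19 of the 31 (61.3%), beside 7.95% of all genes. The mean of Siglec-XII 1 to 3 was in no member 2-fold below the controls. Distances of Siglec-XII 4 from the control mean ran from -1.85 in Flna to 0.08 in Myl6, with Actg2 at -1.72, Acta2 at -1.68, Smtn at -1.62 and Myh11 at -1.60. For the mean of Siglec-XII 1 to 3 they ran from -0.55 in Pgm5 to 0.14 in Hspb7, with a median of -0.35 beside -0.08 for all genes, and 26 of the 31 were below the controls.

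**Figure D3:**
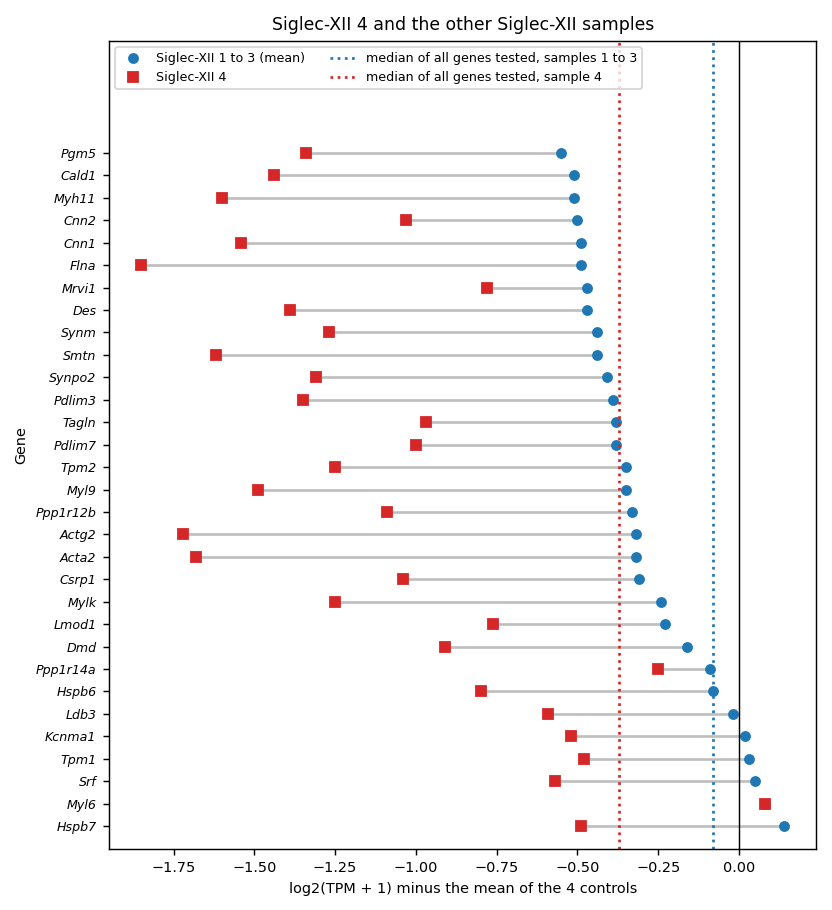
For each of the 31 tested genes (y axis), log2(TPM + 1) minus the control mean (x axis) is shown for Siglec-XII 4 (red squares) and for the mean of Siglec-XII 1 to 3 (blue circles), with dotted lines at the medians of all genes tested, -0.37 and -0.08. Every red square except that of Myl6 is left of its blue circle, and most circles are left of the blue line.

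Leaving out Siglec-XII 4 reduced the differences and kept most of the calls. The median difference of the members went from -0.54 to -0.35 (all genes, from -0.15 to -0.08), and 12 of the 31 (38.7%) were lower at an unadjusted p of 0.05 or less from limma, beside 3.18% of all genes. None was higher, beside 1.09% of all genes. All 12 were among the first 15, and Cnn2, Ppp1r12b and Tpm2 were lost. The median SD within groups was 0.25 without this sample and 0.38 with it. With Siglec-XII 3 and 4 both left out, 8 members were called, all lower, beside 1.57% of all genes lower and 1.18% higher. Control 3 also weighed on this count, since 5 members were called without it, all lower, beside 8.14% of all genes lower and 1.06% higher.

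In 9 of the 31 tested members (29%), every Siglec-XII sample was below every control, beside 4.06% of all genes tested: Cnn1, Smtn, Des, Synm, Synpo2, Pdlim3, Pdlim7, Csrp1 and Flna. The same 9 were separate without Siglec-XII 4, beside 4.56% of all genes, and none was separate in the other direction. Without Control 2 the count was 17, beside 5.23% of all genes. The scale mattered too, since after median centring 1 member was separate, 7 were lower at an unadjusted p of 0.05 or less from limma (2.16% of all genes lower and 8.64% higher) and the median difference was -0.33. With quantile normalization, 8 were lower (3.1% of all genes lower and 5.35% higher) and 1 was separate. When centring was combined with leaving out Siglec-XII 4, a choice made after seeing the data, 1 member was lower (1.24% of all genes lower and 4.84% higher) and the median was -0.22, beside 0.04 for all genes.

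Other genes of contraction and its signaling, adhesion and caveolae were measured from a list of 62, of which 38 were tested. Of these, 5 (13.2%) were lower at an unadjusted p of 0.05 or less from limma and none was higher, with a median of -0.35, beside 7.67% lower and a median of -0.15 over all genes tested. The phospholipase Plcb4, which acts downstream of receptors that couple to Gq, differed by -0.58 (limma, unadjusted p = 0.00709), and Cav1, the coat protein of caveolae, by -0.53 (limma, unadjusted p = 0.0127). The integrin activator Fermt2 differed by -0.50 (limma, unadjusted p = 0.0165), and the actin- and myosin-binding supervillin gene Svil by -0.54 (limma, unadjusted p = 0.0187). Without Siglec-XII 4, 4 of the 38 (10.5%) were called, beside 3.18% of all genes, and the median was -0.17. After median centring, 1 was lower (2.63%), Plcb4, and 2 were higher (5.26%), close to or under the 2.16% and 8.64% of all genes. Cav1, Fermt2 and Svil were then above 0.05 (limma, unadjusted p = 0.0981, unadjusted p = 0.182 and unadjusted p = 0.0789). With all samples, none of the 38 passed the adjusted p (limma, smallest adjusted p = 0.515).

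Skeletal muscle genes had higher means in the Siglec-XII samples. Their markers summed to 20.6, 54.6, 52.5 and 22 TPM in controls 1 to 4 and to 80.8, 81, 131 and 44.7 TPM in Siglec-XII 1 to 4. All 7 had a mean above the controls, and the 4 that were tested were higher at an unadjusted p of 0.05 or less from limma, none at the adjusted p, beside 1.19% of all genes. Tnnt3, a troponin of fast fibers, differed by 1.37 (limma, unadjusted p = 0.0116), Acta1, the skeletal actin, by 1.25 (limma, unadjusted p = 0.0263), Mylpf, the fast regulatory light chain, by 1.05 (limma, unadjusted p = 0.012), and Ckm, the muscle creatine kinase, by 0.72 (limma, unadjusted p = 0.0435). Without Siglec-XII 4 these were 1.69, 1.57, 1.13 and 0.96. With all samples, only Mylpf of the 4 was without overlap, beside 1.05% of all genes separated in this direction. Tnnt3, Acta1 and Ckm overlapped and were separate only without Siglec-XII 4. Of the fast and mixed myosins, Myh1 reached at most 1.69 TPM, Myh4 2.83 TPM and Myh2 0.653 TPM.

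The markers of other cells set single samples apart. Colon epithelium summed to 11049 to 15572 TPM in controls and 11101 to 15114 TPM in Siglec-XII samples, and none of its 9 genes was at an unadjusted p of 0.05 or less from limma. Siglec-XII 4, the lowest for smooth muscle, was the highest for fibroblast markers (73.9 TPM, against at most 40.4 elsewhere) and for mesothelium (18.7 TPM, against at most 2.64). Its fibroblast rank rests on Dcn, at 57.1 TPM against 5.58 to 21.9 TPM in the other samples, since the other 5 genes summed to 16.8 TPM there, below Control 3 (24.7 TPM) and Control 4 (22.9 TPM). Its mesothelial sum was mostly Msln, at 12.4 TPM. All 4 endothelial genes had lower means, as had 78.1% of all genes tested. They summed to 2.3 to 3.82 TPM in controls and 1.41 to 1.82 TPM in Siglec-XII samples, and 3 were under 1 TPM in all samples. The 1 tested, Pecam1, differed by -0.59 (limma, unadjusted p = 0.000973, adjusted p = 0.515). After centring it differed by -0.38 (limma, unadjusted p = 0.0397). The part of these cells in the differences of the contractile genes was not tested.

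Among the remaining lists, pericyte markers ranged from 5.85 to 12.2 TPM in controls and 5.17 to 7.05 TPM in Siglec-XII samples. Of the 5 genes, 4 had lower means, and Kcnj8 went the other way (0.40, limma, unadjusted p = 0.126). Notch3 differed by -1.10 (limma, unadjusted p = 0.0422). It was above 0.05 without Siglec-XII 4 (limma, unadjusted p = 0.0947) and after centring (limma, unadjusted p = 0.091). Its value in Control 3 (0.456 TPM) lay within the range of the Siglec-XII samples. Cardiac markers summed to 5.8 to 14.4 TPM and 4.28 to 9.43 TPM, from Tnnt2 (-0.79, limma, unadjusted p = 0.022) and Myl7 (-0.06, limma, unadjusted p = 0.871), while Myh6 was at 0 in all samples. For the other lists the summed ranges in controls and in Siglec-XII samples were 5.19 to 11.7 and 5 to 5.32 TPM for enteric neurons, 1.91 to 2.83 and 1.41 to 2.05 TPM for enteric glia, and 102 to 199 and 110 to 192 TPM for interstitial cells of Cajal. The Cajal sum was mostly Ano1, at 96.9 to 191 TPM, while Kit was at 4.78 to 9.61 TPM. The ranges were 0.126 to 3.64 and 0.599 to 3.17 TPM for adipocytes and 1.64 to 14.1 and 1.66 to 2.64 TPM for leukocytes. Few of these genes were high enough to be tested, 2 of 5 for neurons, 1 of 4 for glia, 2 of 3 for Cajal cells, 1 of 3 for adipocytes and 1 of 5 for leukocytes, and none of those tested was at an unadjusted p of 0.05 or less from limma. On the log2 scale, all genes of the neuron, glia, Cajal, leukocyte and fibroblast lists had lower means in the Siglec-XII samples, as had 78.1% of all genes tested. Of the fibroblast genes, Dcn (-0.01) and Lum (-0.02) hardly differed on this scale. In TPM the mean of Dcn was higher, at 20.1 in Siglec-XII samples against 14 in controls.

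**Figure D4:**
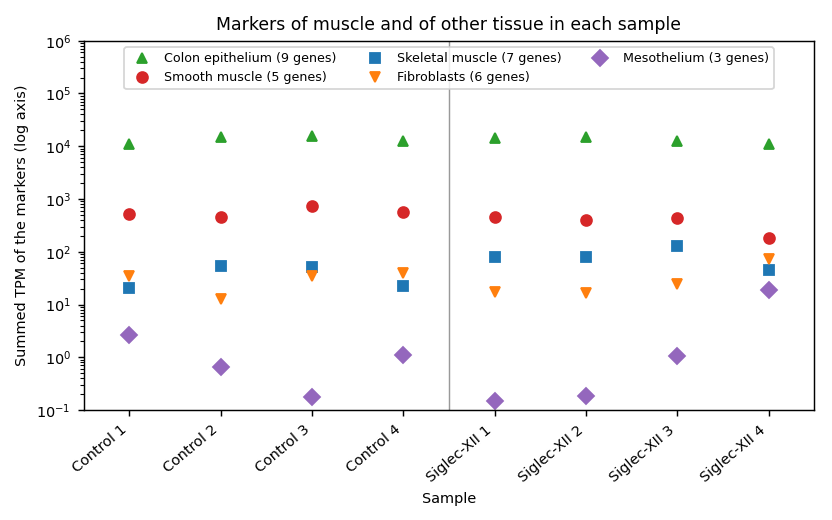
Summed TPM (y axis, log axis) of the marker genes of 5 tissues is plotted for each of the 8 samples (x axis). Smooth muscle is lowest in Siglec-XII 4 at 179 TPM, where mesothelium is highest at 18.7 TPM, and skeletal muscle is highest in Siglec-XII 3 at 131 TPM.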

How the data were processed

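Distal colon RNA was analysed in 4 samples of each condition, grouped by the deposited labels. The authors deposited log2(TPM + 1) per gene, made with kallisto 0.45.0 on GRCm38 per the submitters' processing notes, whereas the methods name an earlier version and a human reference. The mouse identifiers (98.3% in GENCODE M21, which gave positions and transcripts) fit the former. The deposited values were not adjusted between samples here. Depth is unknown, so no counting error is given, and precision rests on the sample number. No sample repeated another (largest correlation 0.987).

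Genes reaching a TPM of 1 in 4 or more samples were kept. Groups were compared by a two-sided limma test (limma 3.58.1, R 4.3.3, eBayes with a mean trend) with Benjamini-Hochberg adjustment over 13164 genes. The fit was also run on simulated data, in which each gene varied independently. Such data hold no shift shared by a whole sample and cannot vouch for the calls made here. The study's count test could not be used on these values. All p-values of members are from this fit. The adjusted p of each member, marker and other contraction gene at an unadjusted p of 0.05 or less was 0.515. A gene was called when its unadjusted p was 0.05 or less. Windows of 31 bases shared between genes were counted in GENCODE M21 transcripts. Python 3.11.15, scipy 1.17.1 and matplotlib 3.10.9 were used for sums and figures.

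Members, gene lists and tests were chosen with earlier results of these data known. Values in every sample were given for Acta2, Actg2, Myh11, Cnn1 and Des, for the next 5 members by unadjusted p, for members of opposite sign and, as ranges except for Itga8, for those under 1 TPM. Of the other contraction genes, up to 4 per direction by unadjusted p were named. Smtn, Flna, Itga8, Dcn, Msln, Myl7, Myh1, Myh2, Myh4 and Myh6 were named with values after these had been seen. Alternatives were other filters, a pseudocount of 0.1, median centring, quantile normalization, array weights, the sample number as a block, and samples left out.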

Additional observations from a re-analysis of the deposited data

Results flagged for a closer look

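Each group of 4 values was searched for a sample whose gap to its nearest neighbor took more of the range of the group than the 95% critical value of Dixon's test. Of 74 groups (37 genes, both conditions), 9 held one, where chance gives about 1 in 20, or 3.7, if the groups are independent. These genes come from the same samples and vary together, so the comparison cannot show an excess. The search was not run over all genes, of which 51.9% were lowest in Siglec-XII 4. Siglec-XII 4 was the low sample in 6 of these, with gaps of 0.874 of the range for Acta2, 0.907 for Actg2, 0.832 for Des, 0.941 for Synm, 0.884 for Flna and 0.925 for Hspb6. In the controls, Control 2 was low for Pdlim7 (0.852), and Control 3 was high for Kcnma1 (0.923) and for Sgca (0.938), which was under 1 TPM in all samples.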

How the results depend on the processing

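No member passed the adjusted p under any of the 17 alternatives (limma; lowest adjusted p 0.178, with array weights). The number of members lower at an unadjusted p of 0.05 or less (15) was 20 with array weights, beside 10.8% of all genes. At a TPM of at least 5 it was 16 of 25, beside 6.13%. It was 8 with Siglec-XII 3 and 4 left out, 8 with quantile normalization and 7 with median centring. With centring and Siglec-XII 4 left out it was 1 (median difference -0.22). With each sample left out in turn it was 5 to 18, where Control 3 gave the 5. The 18 came without Control 2 (5.3% of all genes lower) and without Siglec-XII 1 (16.6%). Over these omissions the median difference was -0.71 to -0.35. The separate members (9) were 9 to 17 over them, with 1 under median centring and 1 under quantile normalization. The difference in the share of TPM (-0.0416 percentage points) was -0.0548 to -0.0241 over the same omissions. Over all genes, the adjusted count (5) was 2 without Siglec-XII 3 and 4, 3 at a TPM of at least 5, 18 with array weights, 3 with centring and Siglec-XII 4 left out, 3 without a filter, and 2 to 6 with each sample left out. The unadjusted count (1167) was 362, 699 and 1851 under the first 3 of these, 2043 without a filter and 483 to 2365 with each sample left out.

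Signs turned in 7 members, of which Hspb6 (-0.26) was the farthest from 0. Median centring gave 0.08 for Ppp1r14a, 0.12 for Tpm1, 0.05 for Ldb3, 0.20 for Hspb7, 0.10 for Kcnma1 and 0.11 for Srf. Quantile normalization gave 0.08 for Ppp1r14a, 0.04 for Ldb3, 0.16 for Hspb7, 0.03 for Kcnma1 and 0.06 for Srf. Without Siglec-XII 3 and 4, Tpm1 was 0.06, Ldb3 0.01, Hspb7 0.10, Kcnma1 0.25 and Srf 0.23. Array weights gave 0.19 for Hspb7 and 0.21 for Kcnma1. Centring without Siglec-XII 4 gave 0.03 for Ppp1r14a, 0.16 for Tpm1, 0.10 for Ldb3, 0.04 for Hspb6, 0.27 for Hspb7, 0.14 for Kcnma1 and 0.17 for Srf. With each sample left out, Tpm1 ranged from -0.17 to 0.03, Hspb7 from -0.10 to 0.14, Kcnma1 from -0.25 to 0.02 and Srf from -0.28 to 0.05. The cause was not tested.

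No pairing of the groups by sample number was seen, with correlations of same-numbered samples of -0.165, -0.204, 0.103 and -0.002. These correlations cannot exclude a pairing. With the sample number as a block, 16 members were called, all lower, beside 6.19% of all genes lower and 0.988% higher. Of all genes, 4 passed the adjusted p in that fit. Array weights were lowest for Siglec-XII 4 (0.187), Control 1 (0.362) and Siglec-XII 3 (0.411). Depth is unknown, and the 6 members under 1 TPM are limited most by it.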
